A study of Mus musculus with 6 samples.

Results

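The miR-26 and miR-101 families are small groups of liver microRNAs (miRNAs) known as suppressors of tumor growth. A miRNA guides the Argonaute protein to messenger RNAs that pair with its seed, bases 2 to 8 from the 5′ end. Both families pair with the mRNA of Ezh2, the histone methyltransferase of the Polycomb complex. miR-26a is also known for targeting cyclins of the D and E types, and miR-101 for targeting Mcl1, a survival protein, and Ptgs2, an enzyme of prostaglandin synthesis. In liver cancer both families are known to be low.

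The members were all mouse miRNAs on the array whose name began with miR-26a, miR-26b, miR-101a or miR-101b, which gave 9 of 1247 miRNAs. Of these, mmu-miR-26a-5p, mmu-miR-26b-5p, mmu-miR-101a-3p and mmu-miR-101b-3p were detected on all 6 arrays. The 5 other arms, miR-26a-1-3p, miR-26a-2-3p, miR-26b-3p, miR-101a-5p and miR-101b-5p, were detected on none, and no comparison was made for them. At most 2.50% of the spots of any of these 5 were well above background on any array.

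The arrays measured total liver RNA of male C57BL/6 mice, 3 in each group. From 7 weeks of age, mice of the CCl4 group received intraperitoneal carbon tetrachloride, a hepatotoxic solvent that causes liver fibrosis, at 0.6 ml/kg in corn oil, 2 times a week for 10 weeks. Mice of the corn oil group received the same volume of corn oil without CCl4. Each liver RNA carried the dye Cy3 and was read on a separate array. The value used for a miRNA was its total signal over all probes, a linear intensity after background subtraction. All 6 arrays lay on 1 slide, corn oil in row 2 and CCl4 in row 1, so slide row and treatment cannot be told apart.

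The array of CCl4 replicate 3 stood apart from the others before any normalization, and results are therefore given with and without it. On this array 334 miRNAs were detected, against 245 and 227 on the other CCl4 arrays and 186 to 193 on the corn oil arrays. Its rank correlation with the other CCl4 arrays over the 166 miRNAs detected on all arrays was 0.860 and 0.856, while these 2 arrays correlated at 0.979 with each other. The signal of its labeling and hybridization spike-in RNAs, which are added in equal amounts, was 1.51 times the corn oil mean, against 1.07 and 1.16 times on the other CCl4 arrays. The median miRNA of the 166 was 1.36 higher on the log2 scale on CCl4 replicate 3 than on the mean of CCl4 replicates 1 and 2.

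Markers of several cell types differed on this array. miR-122-5p, the main hepatocyte miRNA, had signals of 17855, 16613 and 18345 on the corn oil arrays, 13109.9 and 15544 on CCl4 replicates 1 and 2, and 2158 on CCl4 replicate 3. Summed over the 6 hepatocyte miRNAs listed, of which miR-122-5p was the brightest, the signal was 20971, 19431 and 21366 with corn oil and 15456, 18261 and 4303 with CCl4. Of 10 miRNAs of other tissues, only CCl4 replicate 3 gave detected signals for miR-375-3p of endocrine cells, miR-127-3p, miR-10b-5p and miR-124-3p of neurons, at 769, 818, 715 and 6.37. The neuroendocrine miR-7a-5p, the brightest of that list, had a signal of 985 there and between 9.65 and 13.5 on the other arrays. The list summed to 3293 on CCl4 replicate 3 and to between 9.65 and 13.5 elsewhere. miR-9-5p of brain, miR-1a-3p and miR-133a-3p of muscle, and miR-216a-5p and miR-217-5p of pancreatic acinar cells were detected on no array. The part of these RNAs in the results below was not tested.

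miR-26a-5p had total signals of 444, 399.9 and 503 with corn oil and 560.5, 461 and 2839.8 with CCl4. CCl4 replicate 3 was the high array, at 5.56 times the mean of the other CCl4 arrays, and CCl4 replicate 2 lay within the corn oil range. miR-26b-5p had total signals of 232, 190.3 and 243 with corn oil and 227, 222 and 889.9 with CCl4. CCl4 replicates 1 and 2 lay inside the corn oil range, and CCl4 replicate 3 was 3.96 times their mean.

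miR-101a-3p showed a similar pattern, with total signals of 74.6, 64.3 and 69.6 with corn oil and 69.0, 67.3 and 297 with CCl4. CCl4 replicate 3 was 4.36 times the mean of replicates 1 and 2, which were within the corn oil range. miR-101b-3p had total signals of 143, 121 and 134 with corn oil and 109.6, 114 and 63.8 with CCl4. Here CCl4 replicate 3 was the lowest array, at 0.570 times the mean of CCl4 replicates 1 and 2, and each CCl4 array lay below each corn oil array before normalization. Of all 166 miRNAs, 31 had a lower mean log2 signal on CCl4 replicates 1 and 2 than with corn oil, 18.7%. The share of all miRNAs without overlap before normalization is not given.

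**Figure D1:**
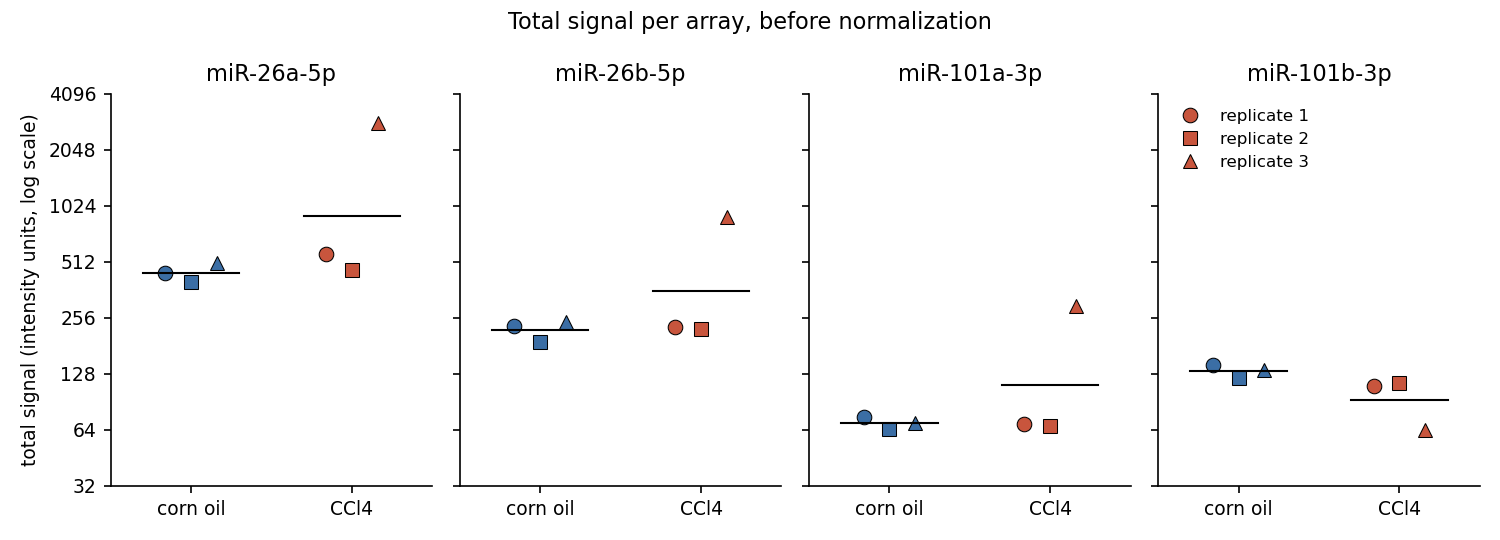
Total signal in intensity units (log scale) of the 4 detected members on each array before normalization, by group, with 1 point per array and the geometric mean as a line. On CCl4 replicate 3 (triangles), miR-26a-5p, miR-26b-5p and miR-101a-3p were the highest values of their panels, whereas miR-101b-3p was the lowest of its panel.

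The signals were precise within an array. Each member was read by 2 probes of 20 spots each, all spots were well above background, and the coefficient of variation over the spots of a probe was between 2.43% and 12.5%. The probes of a member moved together. Between CCl4 replicate 3 and the other CCl4 arrays, the log2 difference was 2.47 and 2.49 for the probes of miR-26a-5p and 2.00 and 1.98 for those of miR-26b-5p. It was 2.11 and 2.14 for miR-101a-3p and -0.79 and -0.82 for miR-101b-3p. The opposite signs within the miR-101 family were therefore seen with both probes of each miRNA.

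Among the 166 miRNAs, 26 had a lower signal on CCl4 replicate 3 than on the other CCl4 arrays, 15.7%, and miR-101b-3p was among them, at the 5.42 percentile of this difference. miR-26a-5p, miR-26b-5p and miR-101a-3p were at the percentiles 81.3, 68.1 and 71.7. Of the 5 hepatocyte miRNAs detected on all arrays, 4 had a lower signal there. Their log2 differences were -2.73 for miR-122-5p, -2.44 for miR-192-5p, -2.24 for miR-194-5p and -0.50 for miR-148a-3p, and that of miR-30a-5p was 1.59. In whole liver RNA, fewer cells of a type and less RNA per cell cannot be told apart.

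The mature sequences show how the members differ. They are from RefSeq, build GRCm38.p6, in which all 9 members were found, and are printed 5′ to 3′ with the seed in capitals. The miR-26 members share 1 seed, which no other miRNA on the array with a sequence in that table has:
mmu-miR-26a-5p: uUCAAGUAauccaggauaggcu
mmu-miR-26b-5p: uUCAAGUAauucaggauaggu
Counted from the 5′ end of miR-26a-5p, miR-26b-5p differs by C11U and C21U over 21 aligned bases, and it is 1 base shorter. Both differences lie outside the seed.

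The miR-101 members do not share a seed as annotated, because miR-101b-3p starts 1 base earlier. They are shown with miR-101c, miR-144-3p and miR-199a-3p, the other array miRNAs whose bases 1 to 8 hold the 6-base core of the miR-101a-3p seed:
mmu-miR-101a-3p: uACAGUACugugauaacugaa
mmu-miR-101b-3p: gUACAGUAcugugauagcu
mmu-miR-101c: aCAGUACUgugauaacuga
mmu-miR-144-3p: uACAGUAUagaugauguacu
mmu-miR-199a-3p: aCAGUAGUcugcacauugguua
Counted from the 5′ end of miR-101a-3p and over 18 aligned bases, miR-101b-3p differs by A16G alone. All 19 bases of miR-101c lie within miR-101a-3p without a mismatch, and whether a probe for either also binds the other was not tested.

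The signals of miR-101c were 43.3, 36.3 and 41.5 with corn oil and 38.9, 39.5 and 219.8 with CCl4, with the high value on the same array as for miR-101a-3p. miR-144-3p, which is transcribed together with the red cell miRNA miR-451a, had signals of 13.7, 25.8 and 19.9 with corn oil and 31.0, 13.0 and 84.6 with CCl4. Its groups overlapped. miR-199a-3p, a miRNA of mesenchymal cells, had signals of 43.6, 35.2 and 58.4 with corn oil and 324, 132 and 533 with CCl4, and each CCl4 array lay above each corn oil array. Without normalization its log2 change was 2.66, against a median of 0.99 for all 166 miRNAs.

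The miRNA genes lie within longer genes in the RefSeq gene table of GRCm38.p6. The miR-26 genes lie in a family of genes for small phosphatases of RNA polymerase. Mir26a-1 lies within Ctdspl, Mir26a-2 within Ctdsp2 and Mir26b within Ctdsp1, and both of the first genes give the same mature miR-26a-5p. Mir101a lies within the long noncoding RNA gene E130102H24Rik, and Mir101b within Rcl1, whose product acts in ribosomal RNA processing. The array therefore cannot say which of its genes miR-26a-5p came from. Coordinates are not given because the scanner output names another build.

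To ask whether the members differed between CCl4 and corn oil livers, limma was run on quantile-normalized log2 signals of the 166 miRNAs with detection on every array. A call required both an adjusted p (Benjamini-Hochberg) below 0.05 and a fold change above 2. None of the 4 members was called, against 20 of all 166 miRNAs, 12.0%, of which 12 were higher with CCl4, 7.23%, and 8 lower, 4.82%. At the adjusted p alone, 22 miRNAs passed, 13.3%, again with none of the members. At an unadjusted p under 0.05 and the same fold change, 29 miRNAs passed, among them 1 member, miR-101b-3p.

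The normalized log2 signal of miR-101b-3p was 7.64 ± 0.058 (SD, n = 3) with corn oil and 5.83 ± 1.06 (SD, n = 3) with CCl4. This gave a log2 change of -1.82 (95% interval -3.17 to -0.46; limma adjusted p = 0.0914), with all 3 CCl4 values below all corn oil values. For miR-101a-3p the mean was 6.84 with corn oil, the same on each of these arrays because its rank was the same, and 6.12 ± 0.41 (SD, n = 3) with CCl4. Its log2 change was -0.72 (95% interval -1.30 to -0.13; limma adjusted p = 0.107), and 0.68 without normalization. miR-26b-5p had a mean of 8.35 ± 0.14 (SD, n = 3) with corn oil and 7.90 ± 0.30 (SD, n = 3) with CCl4, a log2 change of -0.45 (95% interval -0.95 to 0.056; limma adjusted p = 0.199), and 0.69 without normalization. miR-26a-5p had a mean of 9.20 ± 0.054 (SD, n = 3) with corn oil and 9.51 ± 0.57 (SD, n = 3) with CCl4. The log2 change was 0.31 (95% interval -0.45 to 1.07; limma adjusted p = 0.518), and -0.14 after scaling to the 75th percentile.

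After normalization, the values of the groups did not overlap for miR-101a-3p and miR-101b-3p, 2 of the 4 members, against 65 of all 166 miRNAs, 39.2%. The share among the members was near that of all miRNAs. For miR-26a-5p and miR-26b-5p the normalized values of the groups overlapped.

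Without CCl4 replicate 3, the spread within the groups was smaller and miR-101b-3p was called. It fell by 1.20 on the log2 scale (95% interval -1.42 to -0.99; limma adjusted p = 0.00183, range over the alternatives 0.00111 to 0.389). It was the 1 member called among 4, against 28 of all 166 miRNAs, 16.9%. At the adjusted p alone, 3 of the 4 members passed, against 87 of all 166 miRNAs, 52.4%. In this fit miR-101a-3p fell by 0.98 (limma adjusted p = 0.00302, range over the alternatives 0.000817 to 0.847), whereas its log2 change over 6 arrays without normalization was 0.68. miR-26b-5p fell by 0.59 (limma adjusted p = 0.0331, range over the alternatives 0.0113 to 0.865), but its log2 change was 0.028 on the same 5 arrays without normalization. miR-26a-5p had a log2 change of -0.010 (limma adjusted p = 0.978, range over the alternatives 0.0181 to 0.978), and of 0.19 on the same 5 arrays without normalization. For miR-101b-3p and miR-101a-3p the log2 changes on these 5 arrays without normalization were -0.25 and -0.026, and no member was called. After scaling these 5 arrays to the 75th percentile, miR-101b-3p had a log2 change of -0.89 and was not called, because its fold change was below 2. Both combinations were chosen after seeing the data.

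The direction of 3 members depended on the normalization over all 6 arrays. The median log2 change of the 166 miRNAs was -0.14 after quantile normalization, -0.16 after scaling to the 75th percentile, -0.039 after cyclic loess, 0.69 after scaling to the spike-in RNAs and 0.99 without normalization. The log2 change of miR-101b-3p was negative under all 5, between -1.82 and -0.52, with adjusted p between 0.0914 and 0.299. miR-101a-3p ranged from -0.72 to 0.68 and miR-26b-5p from -0.46 to 0.69, positive with the spike-in RNAs and without normalization. miR-26a-5p ranged from -0.14, after scaling to the 75th percentile, to 1.01, without normalization.

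Relative to the median of the 166 miRNAs over the 6 arrays and under the same normalization, the order of the changes was the same in all 5. The difference from that median was between -1.68 and -1.51 for miR-101b-3p, between -0.57 and -0.31 for miR-101a-3p and between -0.31 and -0.30 for miR-26b-5p. It was between 0.019 and 0.45 for miR-26a-5p. Without CCl4 replicate 3 the differences from the median were -1.08, -0.86, -0.47 and 0.11 in this order after quantile normalization, and -0.70, -0.48, -0.42 and -0.27 without normalization, so that the direction for miR-26a-5p turned. Scaling to the 75th percentile, to the spike-in RNAs and no normalization differ by 1 constant per array, so their differences from the median are equal by construction.

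**Figure D2:**
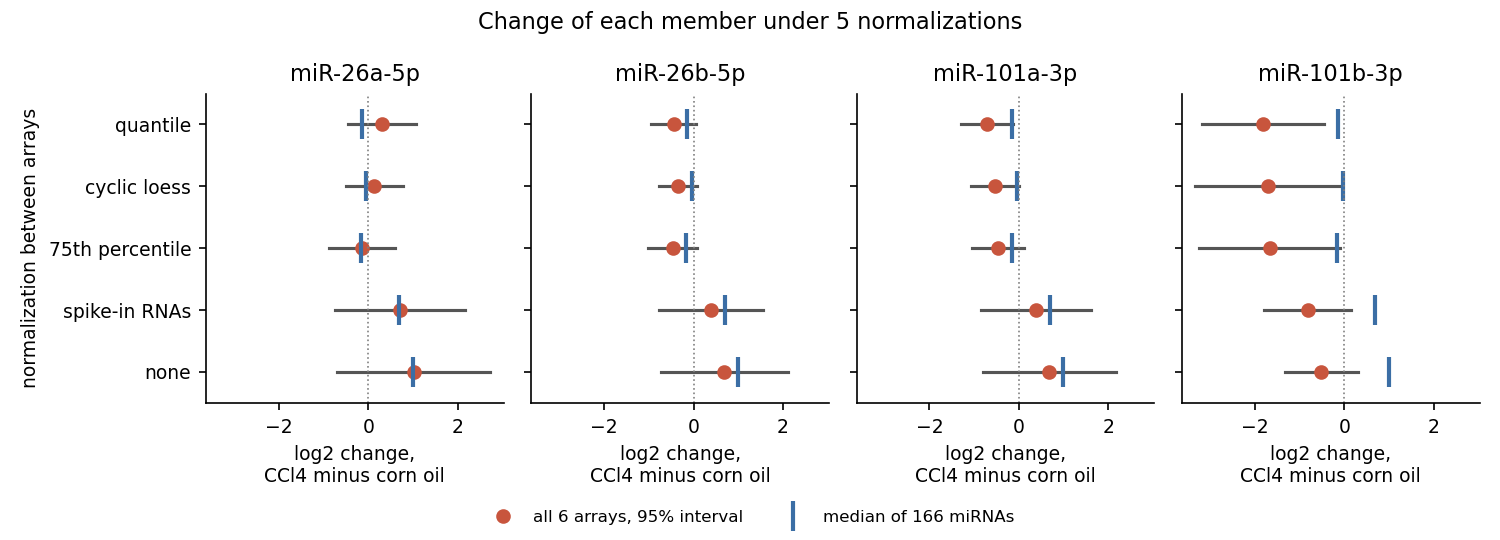
Log2 change (CCl4 minus corn oil, all 6 arrays) of the 4 detected members under 5 normalizations, with 95% limma intervals as bars and the median of the 166 miRNAs as vertical marks. miR-101b-3p was below 0 under all 5, whereas miR-101a-3p and miR-26b-5p were above 0 with the spike-in RNAs and without normalization, and miR-26a-5p was below 0 after scaling to the 75th percentile.

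Ratios of the signals of 2 miRNAs on the same array do not depend on scaling between arrays, and their change between groups was tested with an exact two-sided permutation test over 3 against 3 arrays. The smallest p this test can give is 0.1, so it cannot pass 0.05. The signal of miR-101a-3p over that of miR-101b-3p was 0.521, 0.530 and 0.518 with corn oil and 0.629, 0.590 and 4.65 with CCl4. All CCl4 arrays lay above all corn oil arrays, by a log2 change of 1.20 (exact permutation p = 0.1, the smallest possible). Without CCl4 replicate 3 the log2 change was 0.22, against an SD of 0.018 over the corn oil arrays. Without normalization, the log2 change of miR-101b-3p minus the median change of miRNAs detected on all arrays was -1.51, and -0.70 without CCl4 replicate 3. A miRNA at that median thus rose more relative to miR-101b-3p than miR-101a-3p did, with and without that array. The share of all miRNAs without overlap in this ratio is not given.

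The ratio of miR-101c to miR-101b-3p, examined after its values were seen, had log2 values of -1.73, -1.74 and -1.70 with corn oil and -1.50, -1.53 and 1.78 with CCl4. Its CCl4 values lay above all corn oil values, by a log2 change of 1.31, or 0.21 without CCl4 replicate 3. Both changes were also smaller than the rise of a miRNA at the median relative to miR-101b-3p. The ratio of miR-101c to miR-101a-3p was between 0.564 and 0.596 on 5 arrays and 0.740 on CCl4 replicate 3.

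The signal of miR-26a-5p over that of miR-26b-5p was 1.92, 2.10 and 2.07 with corn oil and 2.47, 2.07 and 3.19 with CCl4. The groups overlapped at CCl4 replicate 2. The log2 change was 0.32 (exact permutation p = 0.2), and 0.16 without CCl4 replicate 3, against an SD of 0.070 over the corn oil arrays.

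Against miR-122-5p of the same array, 3 of the 4 members were relatively higher on all CCl4 arrays than on any corn oil array, against 143 of the 165 miRNAs other than miR-122-5p detected on all arrays, 86.7%. The log2 ratio to miR-122-5p, given as its difference from the corn oil mean, was 0.75, 0.22 and 5.69 on the CCl4 arrays for miR-26a-5p. It was 0.47, 0.19 and 5.04 for miR-26b-5p and 0.42, 0.13 and 5.12 for miR-101a-3p. The mean log2 changes were 2.22, 1.90 and 1.89 (each exact permutation p = 0.1, the smallest possible), and 0.49, 0.33 and 0.28 without CCl4 replicate 3. The median change of this ratio over the 165 miRNAs, members included, was 2.20, and 0.75 without CCl4 replicate 3, so these members were near or below miRNAs in general. miR-101b-3p was at 0.15, -0.039 and 1.97 on the CCl4 arrays, with CCl4 replicate 2 inside the corn oil range. Its mean log2 change was 0.69 (exact permutation p = 0.2), and 0.055 without CCl4 replicate 3, where the SD over the corn oil arrays was 0.078. These ratios show unequal change of 2 signals and do not say which of them changed.

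**Figure D3:**
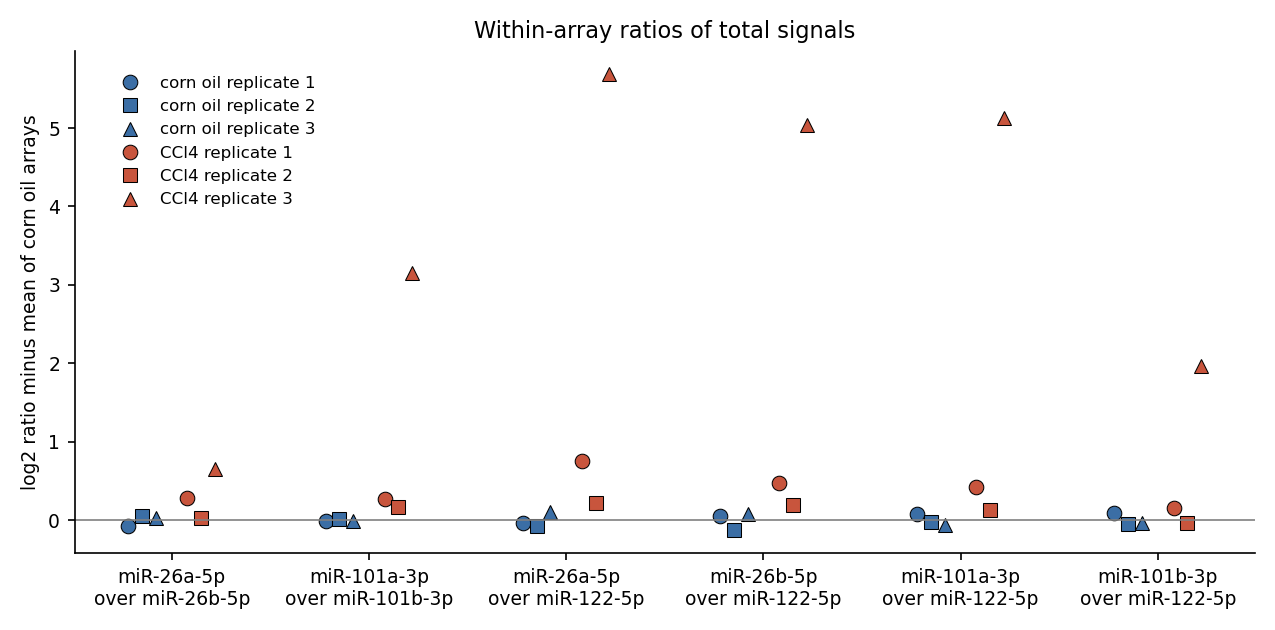
Log2 ratio of 2 total signals on the same array, minus the mean of the corn oil arrays, for the 6 ratios tested, with 1 point per array. CCl4 replicate 3 was the highest point of each ratio, up to 5.69 for miR-26a-5p over miR-122-5p, and the other CCl4 arrays lay between -0.039 and 0.75.

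The miRNAs most like each member were taken as the 3 with the highest Pearson correlation of normalized log2 signal over the 6 arrays, as a description, with the members left out. For miR-26a-5p these were let-7d-5p, let-7a-5p and let-7c-5p of the let-7 family, which acts on Ras and Hmga2 mRNAs, with r of 0.989, 0.989 and 0.987. Without CCl4 replicate 3 the same correlations were 0.752, 0.752 and 0.712. For miR-26b-5p they were miR-30c-5p, miR-107-3p and miR-30b-5p, with r of 0.989, 0.961 and 0.953, and of 0.989, 0.963 and 0.961 without that array. For miR-101a-3p they were miR-365-3p, miR-101c and miR-30b-5p, with r of 0.981, 0.979 and 0.979. For miR-101b-3p they were miR-22-3p, miR-6368 and miR-3968, with r of 0.998, 0.995 and 0.991. The 2 members of a family had no miRNA in common among these 3, while miR-30b-5p was among the 3 of both miR-26b-5p and miR-101a-3p. The points of each r share the treatment and the array of CCl4 replicate 3.

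Among 9 other miRNAs directed at Ezh2, 4 of which are also in another list used here, 6 were detected on all arrays. Of all 166 miRNAs 20 were called, 12.0%, against none of these 6. Their median log2 change was 0.24, against -0.14 for all 166 miRNAs, but -0.18 without CCl4 replicate 3, against -0.12 for all, and 1.20 without normalization, against 0.99 for all. Over the 6 arrays the values were 0.38 for let-7a-5p (limma adjusted p = 0.551), 0.78 for let-7b-5p (limma adjusted p = 0.429), 0.96 for let-7c-5p (limma adjusted p = 0.429) and 0.10 for miR-98-5p (limma adjusted p = 0.895). For miR-25-3p and miR-30d-5p they were -0.33 and -0.49. The values of these 6 in the same order, without CCl4 replicate 3, were -0.064, 0.094, 0.092, -0.30, -0.45 and -0.76. miR-214-3p was detected on 4 arrays and miR-124-3p on 1, and miR-138-5p was undetected on all.

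Of 18 other miRNAs known to be low in liver cancer, 7 of which are also in another list, 16 were detected on all arrays, with a median log2 change of 0.13 against -0.14 for all miRNAs, and of 1.21 against 0.99 without normalization. The median was 0.00 without CCl4 replicate 3, against -0.12 for all miRNAs. miR-214-3p, detected on 4 arrays, and miR-145a-5p, detected on 2, were not tested. In this list miR-34a-5p, a miRNA induced by p53, rose by 1.71 ± 0.32 (SE, n = 3 in each group; limma adjusted p = 0.0262), and miR-203-3p, which is known from epithelia, fell by 1.19 ± 0.16 (SE, n = 3 in each group; limma adjusted p = 0.0111). Without CCl4 replicate 3 these 2 and miR-223-3p were called, 3 of 16 against 16.9% of all miRNAs, and the log2 changes of the first 2 were 1.49 and -1.15. Without normalization over 6 arrays they were 3.09 and -0.013. The call of miR-34a-5p was lost in 5 of 19 alternatives and that of miR-203-3p in 10 of 18, among them those without corn oil replicate 2, without corn oil replicate 3 and without CCl4 replicate 1. miR-203-3p was also not called without corn oil replicate 1, without normalization or with the spike-in RNAs. Over the 6 arrays the other 14 were not called, among them the let-7, miR-29 and miR-148a members. The 2 calls among 16 were near the share of all 166 miRNAs, 12.0%.

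Of 15 miRNAs known to be high in liver cancer, 2 of which are also in another list, 9 were detected on all arrays. None of these 9 was called, against 20 of all 166 miRNAs, 12.0%. The others were left out by the detection filter and not tested. Of these, miR-222-3p and miR-18a-5p were detected on the CCl4 arrays alone, at 13.1, 5.03 and 38.8 and at 16.0, 13.3 and 13.0. miR-210-3p was detected on 4 arrays, at 6.20 with corn oil and 8.57, 7.13 and 138 with CCl4. miR-155-5p and miR-224-5p were each detected on 1 CCl4 array, and miR-17-5p was undetected on all. The median log2 change of the 9 was -0.34, but 1.07 without normalization, against -0.14 and 0.99 for all 166 miRNAs. The median was -0.21 without CCl4 replicate 3, against -0.12 for all, and -0.089 after scaling to the 75th percentile, against -0.16 for all, so its side of the median of all miRNAs depended on the scaling. The brightest, miR-21a-5p, had signals of 2735, 2721 and 2629.8 with corn oil and 4844, 4563 and 2768 with CCl4, all CCl4 arrays above all corn oil arrays before normalization. Its normalized log2 change was -0.30 (limma adjusted p = 0.768), and 0.47 without CCl4 replicate 3. Without normalization over 6 arrays it was 0.55, below the median of 0.99 for all 166 miRNAs. The signals of miRNAs in general were thus higher with CCl4 before normalization, by more than that of miR-21a-5p.

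Cell type markers gave the setting of these values. None of the 5 hepatocyte miRNAs detected on all arrays was called, against 12.0% of all 166 miRNAs. The median log2 change of the 5 was -1.49, or -0.48 without CCl4 replicate 3 and -1.14 without normalization. For all 166 miRNAs the medians in these settings were -0.14, -0.12 and 0.99. Of 6 miRNAs of mesenchymal and stellate cells, the cells that form scar tissue, 4 were detected on all arrays and 2 were called, against 20 of all 166 miRNAs, 12.0%. These were miR-199a-5p, which rose by 1.34 ± 0.28, and miR-199b-5p, which rose by 2.28 ± 0.36 (SE, n = 3 in each group; limma adjusted p = 0.0323 and 0.0159). Both were called also without CCl4 replicate 3, where 28 of all 166 miRNAs were called, 16.9%. The calls were lost in 7 and 6 of 18 alternatives, among them those without each corn oil replicate in turn and without CCl4 replicate 1. The median log2 change of the 4 was 1.31, 1.35 without CCl4 replicate 3 and 2.65 without normalization. miR-214-3p, detected on 4 arrays, and miR-145a-5p, detected on 2, were not tested. The summed signal of this list, in which miR-199a-3p was the brightest, was 82.0, 67.2 and 109 with corn oil and 643, 255 and 1236 with CCl4.

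Of 7 leukocyte miRNAs, 4 were detected on all arrays and none was called, against 12.0% of all miRNAs. Their median log2 change was 0.69, or 2.14 without normalization against 0.99 for all miRNAs. Among these 4, miR-342-3p rose by 0.85 on the log2 scale (limma adjusted p = 0.014), a fold change below 2. At the adjusted p alone 13.3% of all miRNAs passed. The median of the 4 was 0.92 without CCl4 replicate 3, where 1 of the 4 was called, miR-223-3p of myeloid cells, against 16.9% of all miRNAs. The others of the list were left out by the detection filter and not tested. miR-142-5p was detected on 4 arrays, at 3.71 with corn oil and 34.0, 22.7 and 27.1 with CCl4. miR-150-5p was detected on the CCl4 arrays alone, at 7.37, 4.99 and 26.2, and miR-155-5p on 1 CCl4 array, at 5.34. The summed signal of all 7 was 118, 101.5 and 119 with corn oil and 577, 429 and 694 with CCl4. Of these, miR-223-3p had the highest mean over the 6 arrays but not the highest signal on each. The red cell list had 2 of 3 miRNAs on the array and the endothelial list 2 of 2. All 4 of these were detected on all arrays and none was called, against 12.0% of all miRNAs. The median log2 changes of the 2 lists were -0.55 and 0.13, but 0.54 and 1.07 without normalization, and -0.72 and -0.084 without CCl4 replicate 3. For all 166 miRNAs the medians in these settings were -0.14, 0.99 and -0.12. The red cell list, led by miR-451a, summed to 466, 754 and 699.7 with corn oil and 730.4, 315 and 2135 with CCl4. The endothelial list, led by miR-126-3p, summed to 658, 563 and 677 with corn oil and 824, 821 and 3732 with CCl4. The part of cell composition in the values of the miR-26 and miR-101 members was not tested.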

How the data were processed

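Per the file headers, the authors extracted spot signals with Feature Extraction 11.0.1.1, which gives linear intensity after background subtraction, not normalized between arrays, and lists an undetected miRNA at 0.1. The authors also deposited quantile-normalized intensity values, used as an alternative. miR-101a-3p was not analysed there. The corn oil columns of these values appear in another rank order than the scanner arrays of the same samples. Which numbering of the corn oil replicates is right is uncertain, but group means are unaffected. The 4 detected members and the lists were chosen with earlier results of these data known. Control spots were left out, and log2 total signals of miRNAs with detection on every array underwent quantile normalization before fitting in R 4.3.3 with lmFit and eBayes of limma 3.58.1, treatment being the only term. Adjustment was over all 166 miRNAs. The fit was also run on simulated data, but the outcome is not reported here and no result rests on it. Ratios, lists and figures used matplotlib 3.10.9, pandas 2.3.3 and numpy 2.4.6 in Python 3.11.15. The ratios with miR-101c, the ratios of all miRNAs to miR-122-5p and the alternatives joining a scaling with a left-out array were chosen after the values were seen. Named miRNAs were the members, those sharing a seed or core, the 3 most correlated with each member, called list members and miR-122-5p; other list members were named as examples after their values were seen. Of the miRNAs on the array, 1017 had a mature sequence by the same name in the RefSeq table. Alternatives covered normalization, detection filter, probe, background correction, value source, block, array weights and arrays left out. The number of arrays limits precision.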

Additional observations from a re-analysis of the deposited data

How the results depend on the processing

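Of the changes of single members, miR-26a-5p (0.31) turned to -0.14 with 75th percentile scaling, -0.010 without CCl4 replicate 3 and -0.45 with both. miR-26b-5p (-0.45) turned to 0.69 without normalization, 0.39 with spike-in scaling and 0.028 without normalization and CCl4 replicate 3, and miR-101a-3p (-0.72) to 0.68 and 0.38 with the first 2 of these. miR-101b-3p (-1.82) was negative under all alternatives, and was called with array weights (-1.26) and without CCl4 replicate 3 (-1.20), but not without that array after 75th percentile scaling (-0.89) or without normalization (-0.25). The array weights gave CCl4 replicate 3 a weight of 0.036, against 0.86 to 3.20 for the other arrays, so both calls rest largely on the same arrays. The count of 20 called miRNAs became 32 with detection in at least 1 group, 6 without a detection filter, 4 with normexp correction (offset 50), 12 in the deposited values, which hold fewer miRNAs and in which miR-101a-3p was not analysed, 31 with array weights, and 41 without normalization and CCl4 replicate 3. Without normalization and with spike-in scaling, 18 were called, all higher. The alternatives that joined a scaling with a left-out array were chosen after seeing the data. Leaving out 1 array gave 5 to 28 called miRNAs (7, 5 and 6 without corn oil replicates 1, 2 and 3, and 5, 21 and 28 without CCl4 replicates 1, 2 and 3), and log2 changes of -0.010 to 0.53 for miR-26a-5p, -0.59 to -0.29 for miR-26b-5p, -0.98 to -0.56 for miR-101a-3p and -2.22 to -1.20 for miR-101b-3p. The 6 ratios without miR-101c kept their direction in all alternatives run, while miR-101c over miR-101a-3p turned from 0.11 to -0.011 without CCl4 replicate 3. Leaving out 1 array, miR-26a-5p over miR-26b-5p changed by 0.16 to 0.47 and miR-101a-3p over miR-101b-3p by 0.22 to 1.71, and over miR-122-5p the changes were 0.49 to 3.22, 0.33 to 2.75, 0.28 to 2.77 and 0.055 to 1.06 for miR-26a-5p, miR-26b-5p, miR-101a-3p and miR-101b-3p. With the replicate number as a block, 6 miRNAs were called, all among the 20, and no member. Same-numbered arrays deviated from their group means with correlations of -0.18, 0.11 and 0.029. CCl4 replicate 3 enters the mean from which each CCl4 array deviates, so these values cannot decide whether same-numbered arrays were paired. The block and the labels of left-out corn oil arrays rest on a numbering that the deposited values put in doubt. Except where stated, the cause of a difference was not tested.

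The design sets limits on these values. All spots of the 4 detected members were well above background on all arrays, so signal did not limit them, but the 5 other arms were listed at 0.1 and have no measured change. With 3 livers in each group, a permutation test cannot give a two-sided p below 0.1. The 5 normalizations gave different directions for 3 members (miR-26a-5p, miR-26b-5p and miR-101a-3p), and the arrays alone do not say which of them holds for CCl4 replicate 3.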
